A study of Homo sapiens with 14 samples.

Results

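The sites at which RNA carried an A-to-G change were compared between HEK293T cells with the RNA editor named dCas13d-ADAR and HEK293T cells with the editor named REPAIR.t1, both in the condition that the sample titles call NT. The members were every site listed for the 2 dCas13d-ADAR NT libraries and the 2 REPAIR.t1 NT libraries, matched by chromosome and position, with no threshold on the level. They came to 12134 distinct sites out of 26172 in all 14 libraries of the series. The dCas13d-ADAR NT libraries held 8596 of them and the REPAIR.t1 NT libraries 7047.

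HEK293T is an established human embryonic kidney cell line. The 4 libraries were made from poly(A)-selected RNA of this one line, grown in the same medium, and differed by title only in the editor and the replicate number. The titles do not spell out NT, and no label says whether the replicates came from separate cultures, so the spread between replicates may be technical. Every library used here carried an editor, and the libraries give no level for cells without one. The files give a chromosome, a position on hg19 and a level, which is the fraction of A-to-G changes at the site. They give neither reads per site nor depth, strand or gene, so a site that is not in a list may have been unedited, poorly covered or filtered, and intervals from counts cannot be given. Fewer cells with an editor and less editing per cell cannot be told apart in these bulk libraries.

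ADAR enzymes remove an amino group from adenosine in double-stranded RNA. The inosine that results is read as guanosine by reverse transcriptase and by ribosomes, so editing appears in cDNA as an A-to-G change. Cas13 proteins are RNA-guided RNA-binding nucleases, and a catalytically inactive (dead, "d") Cas13 joined to an ADAR deaminase domain can direct editing to a transcript that pairs with its guide. Editing of other adenosines across the transcriptome is a known property of such fusions.

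The dCas13d-ADAR lists were longer, contained more highly edited sites and were more clustered than the REPAIR.t1 lists. The dCas13d-ADAR NT libraries listed 5730 and 5795 sites, against 4683 and 4356 in the REPAIR.t1 NT libraries. The groups did not overlap, and the ratio of their geometric means was 1.28. An exact permutation test over libraries gave a two-sided p of 0.33, which is the smallest value that its 6 arrangements of 2 against 2 libraries can give. The same p applies to every other measure of this kind below whose groups do not overlap, so no such difference can pass a 0.05 threshold.

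The medians and lower quartiles of the lists were similar under both editors, and the lists differed more in the upper part of the range. The lists hold different sites, so these values do not compare the same sites. The median level was 0.267 and 0.269 in the dCas13d-ADAR libraries and 0.25 in each REPAIR.t1 library. Sites with a level of 0.5 or higher made up 6.89% and 7.77% of the dCas13d-ADAR lists, against 4.33% and 4.27% of the REPAIR.t1 lists, a difference of 3.03 percentage points. At 0.8 or higher there were 9 and 13 sites in the dCas13d-ADAR libraries and 2 and 3 in the REPAIR.t1 libraries. The lower quartile was close under both editors, at 0.2 in both dCas13d-ADAR libraries and 0.19 in both REPAIR.t1 libraries.

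The libraries of the same editors with an EZH2 guide were not used in the comparison and give the same measures a second time. They are titled EZH2 for dCas13d-ADAR and EZH2_A22 for REPAIR.t1, so the guide may not be the same, and the labels do not say whether cells of the NT and EZH2 libraries were handled together. They listed 5834 and 5793 sites under dCas13d-ADAR, against 4764 and 4784 under REPAIR.t1, a ratio of 1.22. The share of sites at 0.5 or higher was 6.36% and 6.51% under dCas13d-ADAR and 4.74% and 5.08% under REPAIR.t1. The medians of these libraries overlapped, at 0.267 and 0.263 for dCas13d-ADAR against 0.261 and 0.263 for REPAIR.t1 (exact permutation p = 0.667). The difference in list length and in highly edited sites thus had the same direction with both guides, while that in the median was not seen beyond the spread with the EZH2 guides.

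**Figure D1:**
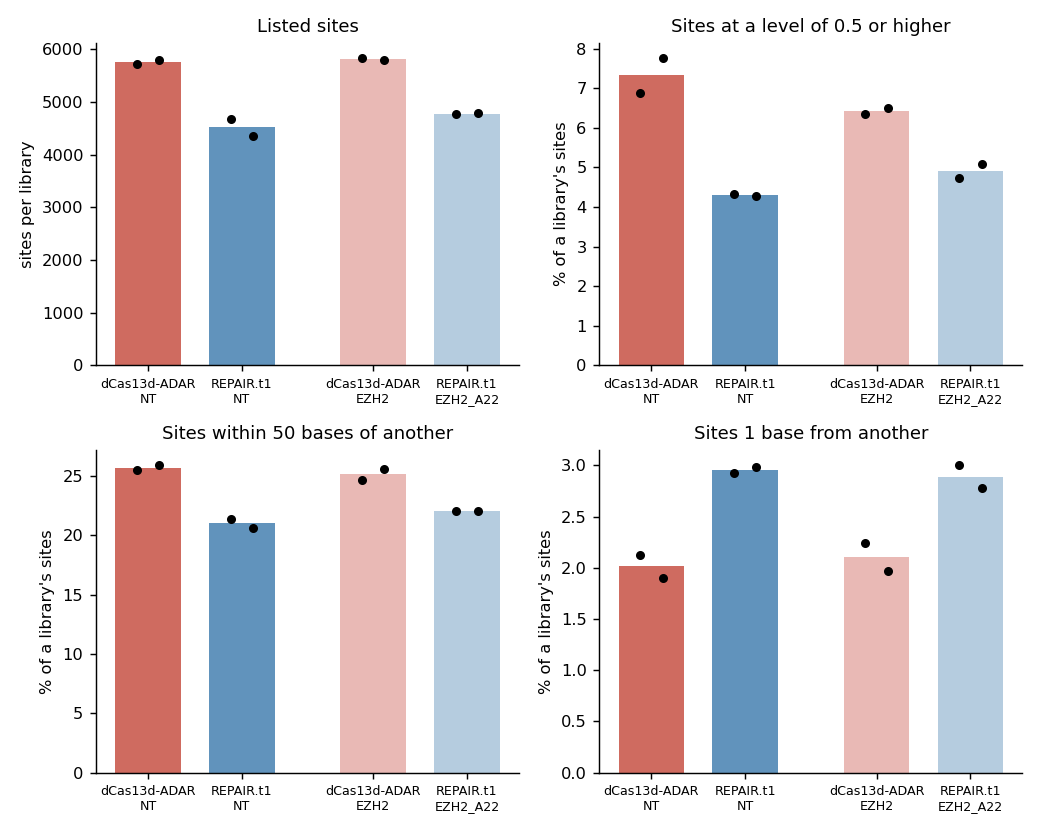
Bars give the mean of 2 libraries and points the libraries, for dCas13d-ADAR (red) and REPAIR.t1 (blue), with NT in full colour and the EZH2 guides in pale colour. The panels show the number of listed sites, the percentage at a level of 0.5 or higher, the percentage within 50 bases of another site and the percentage 1 base from another site. The editors' libraries do not overlap in any panel, and the last panel runs opposite to the others.

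Most sites were listed once. Of the 12134 sites, 7100 (58.5%) were in 1 library, 2684 in 2, 1304 in 3 and 1046 (8.62%) in all 4. The 2 dCas13d-ADAR lists shared 2929 sites, 51.1% and 50.5% of each. The 2 REPAIR.t1 lists shared 1992 sites, 42.5% and 45.7% of each. Between editors the pairs of lists shared 1906 to 2072 sites, which was 32.9% to 36.0% of the dCas13d-ADAR list and 43.8% to 44.2% of the REPAIR.t1 list.

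The sites of REPAIR.t1 were therefore found about as often under the other editor as in the second REPAIR.t1 library. REPAIR.t1 replicate 1 shared 44.1% and 44.2% of its list with the dCas13d-ADAR libraries and 42.5% with REPAIR.t1 replicate 2. REPAIR.t1 replicate 2 shared 43.8% with each dCas13d-ADAR library and 45.7% with REPAIR.t1 replicate 1. The dCas13d-ADAR lists did not behave in this way, since their sites were found more often in the other dCas13d-ADAR library than in either REPAIR.t1 library. The dCas13d-ADAR lists are also the longer ones, and a longer list can hold more of the sites of another list. As a share of the sites in either list of a pair, the overlap was 28.3% between the REPAIR.t1 replicates. It was 34.1% between the dCas13d-ADAR replicates and 23.2% to 24.7% between editors. By this measure the REPAIR.t1 replicates shared more with each other than with dCas13d-ADAR. Of the sites in both dCas13d-ADAR libraries, 64.7% were in a REPAIR.t1 list, and of those in both REPAIR.t1 libraries, 75.4% were in a dCas13d-ADAR list.

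A second listing was more frequent for strongly edited sites. Of the sites of dCas13d-ADAR replicate 1 with a level below 0.15, 41.1% were in dCas13d-ADAR replicate 2, against 27.2% in REPAIR.t1 replicate 1. At 0.6 or more these shares were 81.8% in dCas13d-ADAR replicate 2, against 67.4% in REPAIR.t1 replicate 1. For REPAIR.t1 replicate 1 at 0.6 or more, 64.9% and 71.9% of the sites were in the dCas13d-ADAR libraries and 63.2% in REPAIR.t1 replicate 2.

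**Figure D2:**
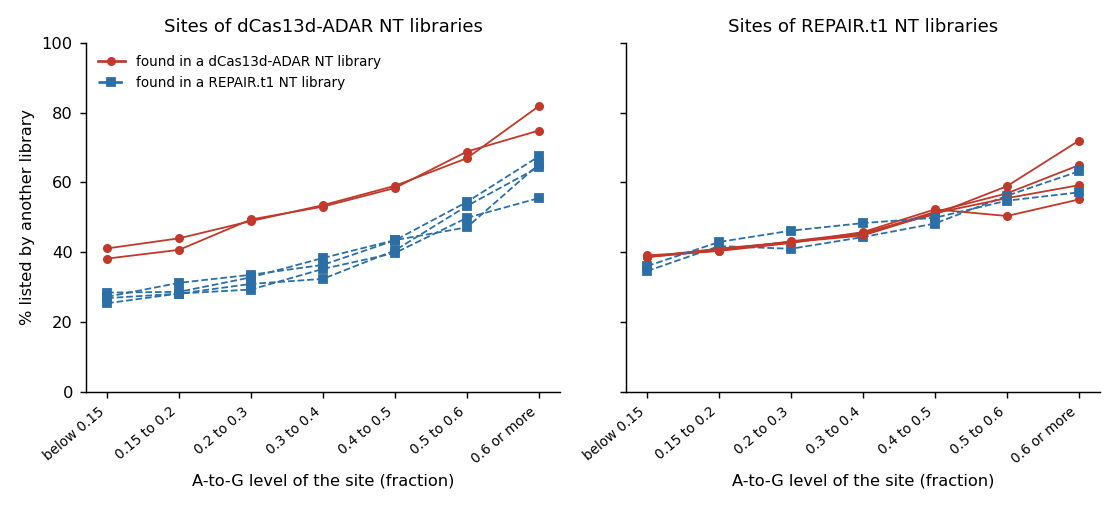
The vertical axis gives the percentage of a library's sites that another NT library also listed, and the horizontal axis the level of the site in 7 ranges. Red lines are searches in a dCas13d-ADAR NT library and blue dashed lines searches in a REPAIR.t1 NT library. In the left panel red lies above blue throughout (41.1% against 27.2% at the lowest level for dCas13d-ADAR replicate 1), and in the right panel the colours lie together.

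At the 1046 sites listed in all 4 libraries, levels were higher under dCas13d-ADAR. The mean over these sites was 0.341 and 0.347 in the dCas13d-ADAR libraries, against 0.301 and 0.296 in the REPAIR.t1 libraries, a difference of 0.0451. The size depends on which sites are taken. Over the sites shared by a dCas13d-ADAR and a REPAIR.t1 library, the pairs gave differences of 0.0294 to 0.0381, with a mean of 0.0333. The medians were 0.316 and 0.321 under dCas13d-ADAR and 0.282 and 0.278 under REPAIR.t1. The lower quartiles were 0.229 and 0.241 under dCas13d-ADAR and 0.211 in both REPAIR.t1 libraries. Levels of 0.5 or higher were reached by 15.9% and 16.1% of the sites under dCas13d-ADAR and by 7.55% and 6.31% under REPAIR.t1. With the EZH2 guides, at the sites listed in all 4 of those libraries, the means were 0.340 and 0.343 for dCas13d-ADAR and 0.311 and 0.307 for REPAIR.t1.

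The mean level was higher under dCas13d-ADAR at 718 of the 1046 sites (68.6%). Both dCas13d-ADAR libraries lay above both REPAIR.t1 libraries at 356 sites (34% of those compared) and below both at 110 (10.5%). The libraries overlapped at the other 580. Differences of 0.1 or more were found at 280 sites upward and at 58 downward, and differences of 0.2 or more at 67 upward and 10 downward. At a single site, libraries of different editors differed slightly more than replicates did, and the difference between editors here includes the spread between replicates. The median absolute difference between single libraries was 0.0762 to 0.0833 between editors, against 0.0685 between the dCas13d-ADAR replicates and 0.0597 between the REPAIR.t1 replicates.

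**Figure D3:**
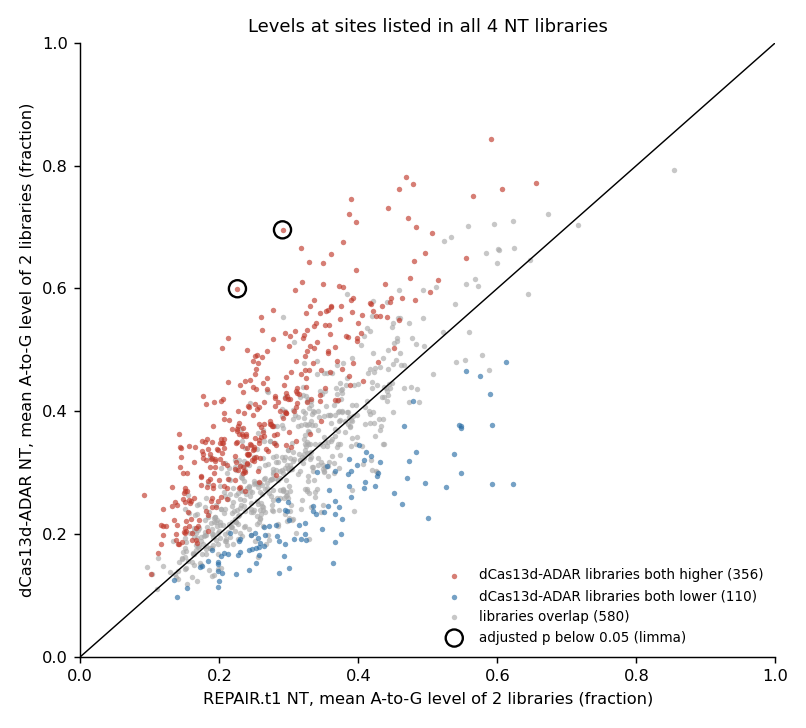
Each of the 1046 points is a site listed in all 4 NT libraries, with the mean level under dCas13d-ADAR on the vertical axis and the mean level under REPAIR.t1 on the horizontal axis (fractions, mean of 2 libraries each). Red points (356) have both dCas13d-ADAR libraries above both REPAIR.t1 libraries, blue points (110) have both below, grey points (580) overlap, and the diagonal marks equal levels. Most points lie above the diagonal, and the 2 circled points are those with an adjusted p below 0.05.

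The absolute difference was larger at sites of higher level, while the ratio was nearly flat. When the 609 sites also listed by all 4 EZH2 libraries were binned by their mean level in the EZH2 libraries, which the comparison does not use, the dCas13d-ADAR NT mean exceeded the REPAIR.t1 NT mean by 0.0348 at 114 sites below 0.25. It exceeded it by 0.0541 at 218 sites between 0.25 and 0.35, by 0.0698 at 224 sites between 0.35 and 0.5 and by 0.0980 at 53 sites at 0.5 or higher. The ratio of the dCas13d-ADAR mean to the REPAIR.t1 mean was 1.17 in the lowest bin and 1.19, 1.19 and 1.2 in the others. The share of sites that were higher under dCas13d-ADAR lay between 73.7% and 81.1% in the 4 bins.

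A test per site found few individual differences. With limma on log2 odds of the level, 2 of the 1046 sites (0.191%) had a Benjamini-Hochberg adjusted p below 0.05, both higher under dCas13d-ADAR, and 168 had an unadjusted p below 0.05, of which 147 were higher (14.1% of those tested) and 21 lower (2.01%). After each library was centred on its own median the median difference over all sites was 0.02 in place of 0.28 on the log2 odds scale, positive differences numbered 537 in place of 715, and the unadjusted calls split into 69 higher and 55 lower with none past adjustment. Centring gives every library the same median over these sites. A small median difference and a near-even split of signs are thus built in, and they say nothing of the cause of the shift. Leaving out any of the 4 libraries also left 0 calls with limma, beside 100 to 127 sites at an unadjusted p below 0.05. In each of these fits the group with 1 library is assumed to vary like the other group, which alone gives the spread. The smallest adjusted p was 0.461 without dCas13d-ADAR replicate 1, 0.480 without dCas13d-ADAR replicate 2, 0.624 without REPAIR.t1 replicate 1 and 0.666 without REPAIR.t1 replicate 2. The log2 odds differences of the 2 sites stayed between 2.18 and 2.69 in these fits, and were 2.17 and 2.04 after centring (limma adjusted p = 0.0518).

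The first of the 2 sites was position 57505169 on chromosome 16. Its level was 0.657 and 0.733 in the dCas13d-ADAR NT libraries, against 0.313 and 0.269 in the REPAIR.t1 NT libraries. The log2 odds difference was 2.43 (standard error 0.46, limma adjusted p = 0.0321). In the EZH2 libraries the levels overlapped, at 0.538 and 0.517 under dCas13d-ADAR and 0.538 and 0.607 under REPAIR.t1.

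The second was position 35796463 on chromosome 22. Its level was 0.593 and 0.606 in the dCas13d-ADAR NT libraries and 0.219 and 0.233 in the REPAIR.t1 NT libraries, a log2 odds difference of 2.30 (standard error 0.45, limma adjusted p = 0.0321). The dCas13d-ADAR EZH2 libraries gave 0.282 and 0.441, and neither REPAIR.t1 EZH2_A22 library listed the site.

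The 10 largest differences in each direction, among sites whose libraries did not overlap, ran from 0.304 to 0.404 upward and from -0.340 to -0.208 downward. Only the 2 sites above passed the adjusted threshold. On chromosome 20, position 42320953 had 0.611 and 0.806 under dCas13d-ADAR, against 0.433 and 0.36 under REPAIR.t1, and kept this gap with the EZH2 guides, at 0.647 and 0.655 under dCas13d-ADAR and 0.389 and 0.419 under REPAIR.t1. On chromosome 7, position 30671149 had 0.286 and 0.277 under dCas13d-ADAR, against 0.647 and 0.538 under REPAIR.t1. With the EZH2 guides it had 0.313 and 0.407 under dCas13d-ADAR and 0.5 and 0.606 under REPAIR.t1, again without overlap. On chromosome 11, position 34101308 had 0.308 and 0.259 under dCas13d-ADAR, against 0.462 and 0.531 under REPAIR.t1. Its EZH2 levels were 0.273 and 0.2 under dCas13d-ADAR and 0.472 and 0.458 under REPAIR.t1.

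Other members of these lists differed in how steady their libraries were. On chromosome 10, position 105063134 had the largest negative difference, with 0.263 and 0.3 under dCas13d-ADAR and 0.577 and 0.667 under REPAIR.t1. The one dCas13d-ADAR EZH2 library that listed it gave 0.55, against 0.5 and 0.625 under REPAIR.t1 EZH2_A22, so the gap was not seen there. On chromosome 16, position 70406325 had 0.231 and 0.222 under dCas13d-ADAR and 0.3 and 0.7 under REPAIR.t1, where the replicates lay farther apart than the lower one lay from dCas13d-ADAR. On chromosome 14, positions 102548711 and 102548598 lie in one locus and were both lower under dCas13d-ADAR. The first had 0.282 and 0.216 under dCas13d-ADAR and 0.426 and 0.5 under REPAIR.t1, and the second 0.14 and 0.167 under dCas13d-ADAR and 0.283 and 0.444 under REPAIR.t1. On chromosome 8, position 48713401 had 0.81 and 0.714 under dCas13d-ADAR and 0.467 and 0.45 under REPAIR.t1, and 0.733 in both dCas13d-ADAR EZH2 libraries against 0.438 in the 1 REPAIR.t1 EZH2_A22 library that listed it.

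The direction of the named differences was then read in the EZH2 libraries. Of the 10 largest negative differences, 9 were listed by both editors in the EZH2 libraries and 9 of these were again lower under dCas13d-ADAR. Of the 10 largest positive differences, 9 were listed by both and 5 were again higher. Both counts take only the sign of the mean difference, whatever its size. The 9 negative ones ran from -0.229 to -0.0125, the smallest at position 105063134 on chromosome 10. At position 16723466 on chromosome 1 the EZH2 libraries overlapped, with 0.5 and 0.417 under dCas13d-ADAR and 0.591 and 0.381 under REPAIR.t1. The counts are small, and the difference between them was not tested.

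Over all non-overlapping sites the recurrence was partial. Of the 356 sites higher under dCas13d-ADAR, 334 had a level for both editors in the EZH2 libraries, and 247 (74.0%) were higher there. Their mean difference was 0.138 in the NT libraries and 0.0590 in the EZH2 libraries. Of the 110 lower sites, 97 had such levels, and 58 were lower there and 39 higher, with a mean difference of -0.107 in NT and -0.0191 in EZH2. The background is that 63.1% of all 931 sites with levels for both editors were higher under dCas13d-ADAR in the EZH2 libraries, and 60.2% of the 500 overlapping ones. The mean EZH2 difference over the 931 sites was 0.0321. The 356 and 110 sites were picked by their NT levels, which tends to widen their NT differences. Smaller EZH2 differences can follow from that choice alone and cannot be read as an effect of the guide.

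The most strongly edited sites were in part common to both editors. At 0.5 or higher in both dCas13d-ADAR libraries there were 151 sites, of which 98 were in both REPAIR.t1 lists, 35 in one and 18 in none. At 0.5 or higher in both REPAIR.t1 libraries there were 38 sites, of which 29 were in both dCas13d-ADAR lists, 4 in one and 5 in none. Only 16 sites met the threshold in all 4 libraries. Where both editors listed them, the 98 dCas13d-ADAR sites had medians of 0.597 under dCas13d-ADAR and 0.436 under REPAIR.t1, while the 29 REPAIR.t1 sites had medians of 0.615 under dCas13d-ADAR and 0.596 under REPAIR.t1. Each set was picked by the levels of its own editor, so its median under that editor cannot lie below 0.5. The choice of sites thus enters the gap between the medians.

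Position 195778213 on chromosome 3 ranked among the 5 highest sites of each editor. It had 0.8 and 0.786 in the dCas13d-ADAR libraries and 0.8 and 0.909 in the REPAIR.t1 libraries, which overlap. The highest mean under dCas13d-ADAR was at position 36296063 on chromosome 11, with 0.917 and 0.769 under dCas13d-ADAR and 0.727 and 0.455 under REPAIR.t1. At position 377385 on chromosome 20 the levels were 0.773 and 0.769 under dCas13d-ADAR and 0.696 and 0.615 under REPAIR.t1.

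Sites listed in both libraries of one editor and neither of the other numbered 1034 for dCas13d-ADAR and 491 for REPAIR.t1. They were mostly of ordinary level, with a median of 0.267 for the dCas13d-ADAR sites and 0.25 for the REPAIR.t1 sites, and 3.09% of the dCas13d-ADAR sites and 1.63% of the REPAIR.t1 sites had a mean of 0.5 or higher. These sites were not confined to one editor once more libraries were read. Of the 1034 dCas13d-ADAR sites, 746 (72.1%) were in a dCas13d-ADAR EZH2 list and 385 (37.2%) in a REPAIR.t1 EZH2_A22 list. Of the 491 REPAIR.t1 sites, 331 (67.4%) were in a REPAIR.t1 EZH2_A22 list and 170 (34.6%) in a dCas13d-ADAR EZH2 list. With the EZH2 libraries of the other editor also required to lack the site, 649 remained for dCas13d-ADAR and 321 for REPAIR.t1.

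The highest of the dCas13d-ADAR sites was position 48890109 on chromosome 8, with 0.767 and 0.8 under dCas13d-ADAR NT and no listing under REPAIR.t1 NT. It had 0.682 and 0.739 in the dCas13d-ADAR EZH2 libraries, and 1 of the REPAIR.t1 EZH2_A22 libraries listed it at 0.5. The highest of the REPAIR.t1 sites was position 50791413 on chromosome 15, with no listing under dCas13d-ADAR NT and 0.636 and 0.5 under REPAIR.t1 NT. None of the 4 EZH2 libraries listed it. Position 102508768 on chromosome 14 had 0.619 and 0.652 under dCas13d-ADAR NT and 0.308 and 0.435 under dCas13d-ADAR EZH2, and no REPAIR.t1 library with either guide listed it.

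One-editor sites lay at widely varying distances from the sites of the other editor. Of the dCas13d-ADAR sites, 14.8% were within 50 bases and 51.5% within 1000 bases of a REPAIR.t1 NT site. Of the REPAIR.t1 sites, 11.6% were within 50 bases and 40.5% within 1000 bases of a dCas13d-ADAR NT site. More than 10000 bases from any site of the other editor lay 21.1% of the dCas13d-ADAR sites and 31.8% of the REPAIR.t1 sites. No background share was computed for these distances, and the lists searched differ in length.

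The 2 editors distributed their sites differently over the chromosomes. Chromosome 19, which is known to be gene-dense, held 753 and 736 sites of the dCas13d-ADAR libraries, against 417 and 341 of the REPAIR.t1 libraries. These were 13.1% and 12.7% of the dCas13d-ADAR lists and 8.90% and 7.83% of the REPAIR.t1 lists, a ratio of 1.54. The share was also higher in both dCas13d-ADAR libraries on chromosomes 22 (ratio 1.45), 16 (1.43), 20 (1.27) and 11 (1.14). It was lower in both on 13 chromosomes, with the lowest ratios on chromosomes 18 (0.604), 2 (0.716) and 10 (0.758), and it overlapped on 5. Shares within a list sum to the whole, so the chromosomes are not independent of each other.

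The pattern over chromosomes recurred in the EZH2 libraries. All 5 chromosomes with a higher share had a higher share there, and 12 of the 13 with a lower share had a lower one. Chromosome X overlapped, and none turned to the opposite side. The ratio on chromosome 19 was 1.5 with the EZH2 guides. Counting loci in place of sites, where sites at most 1000 bases apart were joined, gave a ratio of 1.51 on chromosome 19, with 6 chromosomes higher and 13 lower. Of the 1243 sites by which the mean dCas13d-ADAR list was longer, 29.4% lay on chromosome 19 and 54.3% on chromosomes 16, 19 and 22 together.

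**Figure D4:**
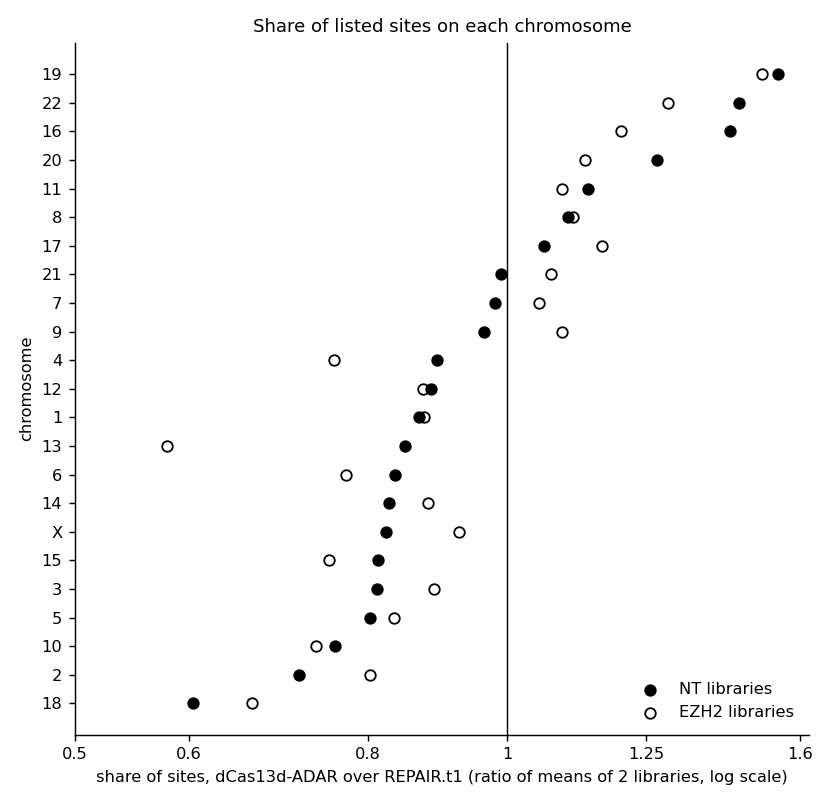
The horizontal axis gives, on a log scale, the ratio of the share of listed sites on each chromosome, dCas13d-ADAR over REPAIR.t1, from the means of 2 libraries. Filled points are the NT libraries and open points the EZH2 libraries, and chromosomes run from the highest NT ratio at the top to the lowest at the bottom. Chromosome 19 is highest with both guides (1.54 in NT and 1.5 in EZH2).

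Among the sites of a single editor the ratio of shares lay farther from 1 than among all listed sites on 19 chromosomes and nearer to 1 on 4, which were 1, 10, 12 and 13. Leaving out shared sites tends to widen such a ratio by construction. Chromosome 19 held 158 of the 1034 dCas13d-ADAR sites (15.3%) and 21 of the 491 REPAIR.t1 sites (4.28%). Chromosome 2 held 34 (3.29%) of the dCas13d-ADAR sites and 47 (9.57%) of the REPAIR.t1 sites. Median levels on chromosome 19 were at or below those of the whole libraries, at 0.256 and 0.25 under dCas13d-ADAR and 0.25 and 0.235 under REPAIR.t1.

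Sites of dCas13d-ADAR were more often clustered. Sites with another site of the same list within 50 bases made up 25.5% and 25.9% of the dCas13d-ADAR lists and 21.4% and 20.6% of the REPAIR.t1 lists, a difference of 4.71 points. Within 10 bases the shares overlapped, at 10.9% and 10.3% under dCas13d-ADAR and 10.4% and 10.7% under REPAIR.t1, and within 200 bases they were 40.5% and 40.8% under dCas13d-ADAR and 33.4% and 32.3% under REPAIR.t1. Joined loci held 1.61 and 1.63 sites each under dCas13d-ADAR and 1.44 and 1.42 under REPAIR.t1. The lists are also longer under dCas13d-ADAR, and the part of list length in these shares was not tested.

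At 1, 2 and 4 bases pairs were fewer under dCas13d-ADAR, and these distances were named after the values were seen. Sites with a neighbour 1 base away made up 2.13% and 1.90% of the dCas13d-ADAR lists, against 2.93% and 2.98% of the REPAIR.t1 lists. In the EZH2 libraries they made up 2.25% and 1.97% under dCas13d-ADAR and 3% and 2.78% under REPAIR.t1. Per 1000 sites there were 10.8 and 9.84 such pairs under dCas13d-ADAR and 14.9 and 15.4 under REPAIR.t1. Pairs 2 bases apart numbered 4.01 and 4.31 per 1000 sites under dCas13d-ADAR, against 5.12 and 5.74 under REPAIR.t1, and pairs 4 bases apart 5.24 and 4.14 under dCas13d-ADAR, against 6.19 and 6.43 under REPAIR.t1. All of these distances were lower without overlap in the EZH2 libraries as well, and 3 bases overlapped with both guides. At 9 bases the order was the opposite, with 5.58 and 6.21 under dCas13d-ADAR and 3.84 and 3.44 under REPAIR.t1, and likewise without overlap with the EZH2 guides. Pairs 10 bases apart were also more frequent under dCas13d-ADAR with both guides. At 5, 7 and 8 bases the NT libraries overlapped. The order at 6 bases turned between the guides. In NT there were 6.81 and 7.08 under dCas13d-ADAR and 4.70 and 4.82 under REPAIR.t1. With the EZH2 guides there were 5.31 and 5.87 under dCas13d-ADAR and 5.88 and 7.32 under REPAIR.t1.

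Distances divisible by 3 were more frequent among the dCas13d-ADAR pairs, a measure chosen after the values were seen. Among pairs 4 to 60 bases apart, 39.2% and 38.6% were a multiple of 3 bases apart under dCas13d-ADAR, against 34.1% and 35.4% under REPAIR.t1, where 33.3% of the distances are multiples of 3. The difference was 4.15 points (SD 0.386 for dCas13d-ADAR and 0.946 for REPAIR.t1, n = 2 each, exact permutation p = 0.33). With the EZH2 guides the shares were 40.5% and 41.4% under dCas13d-ADAR and 35.9% and 33.0% under REPAIR.t1. With sites below a level of 0.2 left out, the NT difference was 1.49 points.

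**Figure D5:**
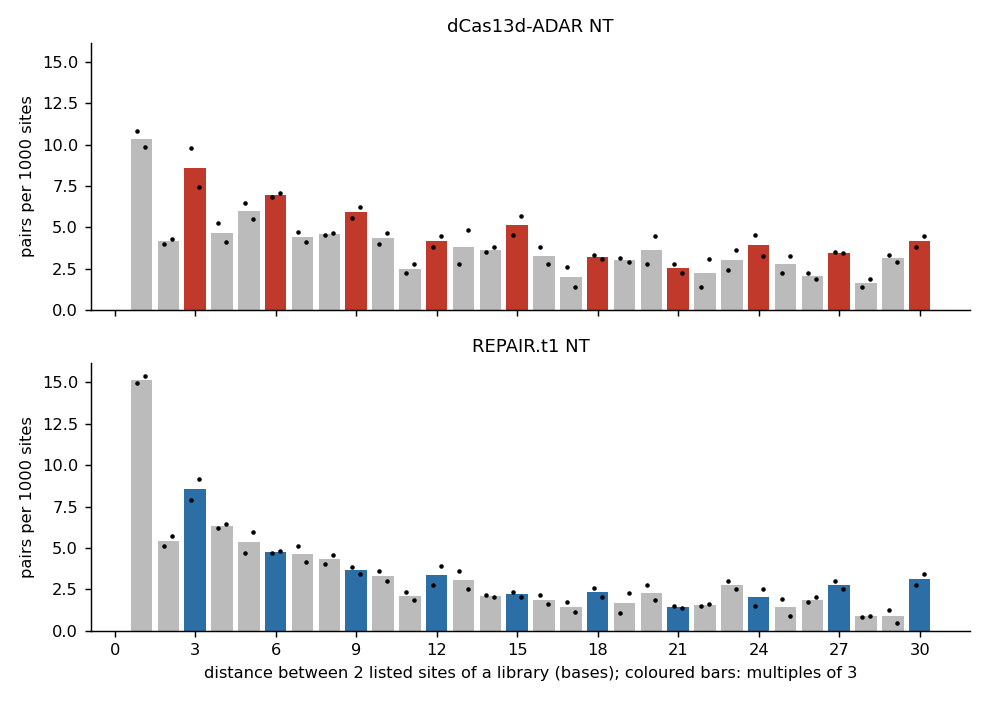
Bars give the mean number of pairs of listed sites per 1000 sites at each distance from 1 to 30 bases, for dCas13d-ADAR NT (upper panel) and REPAIR.t1 NT (lower panel), with points for the 2 libraries and colour for distances that are multiples of 3. Pairs at 1 base are fewer under dCas13d-ADAR (10.8 and 9.84) than under REPAIR.t1 (14.9 and 15.4).

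Sites were also counted by stretch of the genome. Among 425 loci with at least 5 distinct sites, both dCas13d-ADAR libraries listed more sites than both REPAIR.t1 libraries at 168 (39.5%) and fewer at 34 (8%), and the rest overlapped. The loci were picked on sites pooled over the same 4 libraries, and the dCas13d-ADAR lists are 1.28 times as long, so these counts are a description, and an excess beyond list length was not tested. The examples that follow were chosen after their values were seen. On chromosome 16, the locus from 88871855 to 88876113 held 17 and 15 sites under dCas13d-ADAR and 4 and 3 under REPAIR.t1, with 13 and 7 under dCas13d-ADAR and 7 and 5 under REPAIR.t1 with the EZH2 guides. On chromosome 19, the locus from 51301060 to 51302563 held 14 and 15 sites under dCas13d-ADAR and 5 and 2 under REPAIR.t1, and 14 and 14 under dCas13d-ADAR against 4 and 3 under REPAIR.t1 with the EZH2 guides.

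Other loci had more sites under REPAIR.t1. On chromosome 10, the locus from 102120975 to 102123729 held 3 and 4 sites under dCas13d-ADAR and 9 and 15 under REPAIR.t1, and with the EZH2 guides 4 and 4 under dCas13d-ADAR and 18 and 10 under REPAIR.t1. On chromosome X, the locus from 77082268 to 77082496 held no site under dCas13d-ADAR NT and 4 and 5 under REPAIR.t1 NT, and with the EZH2 guides 1 and 0 under dCas13d-ADAR and 5 and 5 under REPAIR.t1. Another locus on chromosome X, from 153276036 to 153278495, did not keep its direction: it held 5 and 8 sites under dCas13d-ADAR and 12 and 12 under REPAIR.t1 in NT, but 8 and 11 under dCas13d-ADAR and 5 and 5 under REPAIR.t1 with the EZH2 guides.

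The 3 densest stretches of 100 bases held sites of both editors in the NT libraries. The window on chromosome 15 from 72491525 to 72491610 held 7 distinct sites, with 6 and 5 listed under dCas13d-ADAR and 6 and 5 under REPAIR.t1. Its median level was 0.330 and 0.404 under dCas13d-ADAR and 0.298 and 0.33 under REPAIR.t1. The window on chromosome 22 from 39710719 to 39710813 also held 7, with 6 and 4 under dCas13d-ADAR and 5 and 5 under REPAIR.t1. The third, on chromosome 17 from 73900624 to 73900716, held 6, with 5 and 2 under dCas13d-ADAR and 3 and 1 under REPAIR.t1. With the EZH2 guides that window held 2 and 4 under dCas13d-ADAR and 0 and 0 under REPAIR.t1.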

How the data were processed

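Each library was a table of sites with a level per site, deposited by the authors as a fraction of A-to-G changes. The submitters' processing notes name cutadapt, STAR 2.6.1b and hg19 (GRCh37). The site caller and its filters were not given in the sources used here, and the files hold no read counts. Sites were matched by chromosome and position. Groups came from the sample titles. Library measures were compared with two-sided exact permutation tests over libraries. Levels at the 1046 sites in all 4 NT libraries were tested with limma 3.58.1 (R 4.3.3) on the log2 of the ratio of level + 0.01 to 1 - level + 0.01, with Benjamini-Hochberg adjustment over all 1046, and a threshold of 0.05. On simulated data for this comparison, with 1046 sites, the test recovered 97.0% of 67 sites changed by 2 on the log2 odds scale and 44.8% of 67 changed by 1. The simulation gave every site the same spread, so these shares may not hold for the real sites. In the real libraries a difference of 2.20, at position 156242120 on chromosome 1, had a limma adjusted p of 0.0652. Named sites were those past the threshold, the 10 largest non-overlapping differences in each direction, the 5 highest per editor, the 5 highest listed by one editor only, the 3 densest windows of 100 bases, and chromosomes. Those described from these lists were picked after their values were seen. The members, rules and tests were chosen with earlier results of these data known. Genes, sequences and annotation on hg19 were not analysed here. Other processing used Python 3.11.15, pandas 2.3.3 and numpy 2.4.6.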

Additional observations from a re-analysis of the deposited data

Results flagged for a closer look

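At position 129463 on chromosome 16 the libraries did not overlap between the editors with either guide, and the direction differed. With NT the levels were 0.6 and 0.684 under dCas13d-ADAR and 0.444 and 0.214 under REPAIR.t1, a difference of 0.313. With the EZH2 guides they were 0.4 and 0.375 under dCas13d-ADAR and 0.455 and 0.444 under REPAIR.t1, a difference of -0.0620. The difference between the guides was not tested. This was not the only such site. Of the 356 sites higher without overlap with NT, 21 were lower without overlap with the EZH2 guides, and 102 were again higher. Of the 110 sites lower without overlap with NT, 10 were higher without overlap with the EZH2 guides, and 16 were again lower.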

How the results depend on the processing

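With 2 libraries a group, exact tests cannot pass 0.05, so direction is what can be compared. Number of sites, median level, the share at 0.5 or higher, both spacing shares, the share of pairs at multiples of 3, sites per locus, the chromosome 19 share and the mean level at shared sites kept their direction under every alternative run. Those for chromosome 19, 1-base neighbours, multiples of 3 and sites per locus were chosen after seeing the data. Every measure but the mean level at shared sites is computed list by list, and its values do not overlap between editors. Leaving out a library therefore could not reverse their direction, so those alternatives cannot test it. The mean level at shared sites is taken over other sites when a library is left out, so it could reverse. Its difference between editors was then 0.0336 to 0.0468, against 0.0451 with all 4 libraries. A minimum level of 0.1 was a mild change, since 1033 of the 1046 shared sites stayed. The difference within 10 bases was 0.0649 points, and its libraries overlap. The number of sites called by limma was 2. It was 20 with a minimum level of 0.2, 16 with the spread from all 8 libraries (609 sites tested), 24 at an adjusted p threshold of 0.1, and 0 with untransformed levels, with centring on library medians, with sites missing from at most 1 library, and without any single library. In those fits 159, 124, 222 and 100 to 127 sites had an unadjusted limma p below 0.05. The log2 odds differences of the 2 sites stayed near 2.43 and 2.30: 2.17 and 2.04 centred, 2.18 to 2.69 and 2.24 to 2.36 with a library left out (where a lone library is assumed to vary like the other group), and the same with 1 library missing. With the replicate block the number called was also 0 (smallest limma adjusted p 0.0671), beside 168 at an unadjusted p below 0.05. The correlation of deviations of same-numbered libraries was 0.0353, which cannot show whether they were handled together. The mean difference with the block, 0.0451, equals the one without it by arithmetic. Sites in both libraries of one editor and neither of the other were 649 for dCas13d-ADAR and 321 for REPAIR.t1 with the EZH2 lists of the other editor included. Leaving out a library of the other editor can only raise the count. It gave 1412 to 1505 for dCas13d-ADAR and 704 to 733 for REPAIR.t1. Without a library of the editor itself, sites of a single list are counted. These were 3019 to 3102 for dCas13d-ADAR and 1965 to 2064 for REPAIR.t1. The mean overlap between editors, 44.0% of the shorter list, was 41.0% with a minimum level of 0.2 and 49.8% with positions within 50 bases counted as shared. Depth per site is unknown, so a missing site and a low level cannot be told apart.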
